A study of Mus musculus with 12 samples.

Results

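The comparison described here is Bcl6 knockout against control in immature single-positive (ISP) thymocytes, which carry CD8 and not yet CD4. Its members are the 4 libraries whose titles name ISP cells, 2 from knockout and 2 from control thymi, of 12 libraries in the series, and every gene in the table was considered. The ISP KO libraries came from Rag1KO Bcl6fl/fl LckCre+ embryos and the ISP control libraries from Rag1KO Bcl6fl/fl LckCre- embryos, both on a C57BL/6 background. Both groups therefore lack Rag1 and carry loxP-flanked Bcl6, and they differ by the Cre transgene, which the Lck promoter drives in the T lineage. Loss of Bcl6 and presence of Cre cannot be told apart, since no group carries Cre without the flanked alleles. Thymi were kept on filters, an antibody to CD3 was added at 1 µg/ml over 2 days, and CD4-negative CD8-positive cells were sorted from them. The other 8 libraries are CD4 and CD8 double-positive (DP) cells from the same kind of culture and CD25-positive cells from unstimulated thymi, each with 2 KO and 2 control libraries. The age reads E16.5 in the culture and stage labels, and E17.5 where the treatment is described. Nothing in the labels states that the 2 libraries of a genotype are separate embryos, or how many were pooled, and which Lck-Cre line was used is not given. The p-values therefore measure the spread between these libraries, which is not known to be that between embryos. The 2 ISP control libraries differed from each other in Ddx3y and Xist, given below.

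BCL6 is a zinc finger repressor that recruits corepressors to DNA and is best studied in B cells of germinal centres and in T follicular helper cells. Without Rag1 a thymocyte cannot assemble a T cell receptor chain and halts at the CD25-positive stage. CD3 antibody stands in for the signal of the pre-T cell receptor, and the cells then divide, switch on CD8 first, and add CD4 to become DP cells. ISP cells are the short, cycling stage in between.

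The labels of these libraries conflict, and this bears on every result. Title and sequencing library name disagree on population or genotype in 6 of the 8 libraries from stimulated thymi, and all 4 libraries titled ISP bear names of wild-type samples. The developmental stage label of ISP KO 2 also reads DP. Groups here follow the titles. Cd4 was at 13.9 and 20.5 RPKM in ISP KO and 17.4 and 18.8 RPKM in ISP control libraries, whereas the 4 libraries titled DP held between 190.6 and 344.1 RPKM. Cd8a was at 232 and 230.4 RPKM in ISP KO and 302 and 269 RPKM in ISP control libraries, and at 1.29 to 2.16 RPKM in CD25-positive cells. Cd4 in all 4 ISP libraries thus lay below every DP library, and Cd8a above every CD25-positive library. Gh, which encodes growth hormone, had 20 and 35 reads in ISP KO libraries and 0 and 0 reads in ISP control libraries. Over all 3 populations there were 8 to 93 Gh reads in each library titled KO and 0 in each titled control.

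The 4 libraries held 13246364 and 13373351 recovered reads (ISP KO) and 14228673 and 11880974 (ISP control), and replicate libraries differed from each other by more than sampling noise. The 2 genotypes also differed in Y chromosome genes. Ddx3y was at 0 and 0.0979 RPKM in ISP KO and 7.28 and 29.7 RPKM in ISP control libraries. Xist, the RNA that coats the inactive X, was at 21.4 and 20.8 RPKM in ISP KO and 20.5 and 0.766 RPKM in ISP control libraries. In DP cells Ddx3y was at 0 and 0.0907 RPKM in KO and 15.7 and 56.3 RPKM in control libraries. In CD25-positive cells it was at 7.61 and 18.7 RPKM in KO and 19.8 and 10.8 RPKM in control libraries. Genotype and the sex makeup of the embryos therefore cannot be told apart in ISP or DP cells. Of the markers of other cell types, 7 of 12 erythroid, 3 of 8 mesenchymal, 3 of 8 endothelial and 1 of 10 thymic epithelial genes were at 0 in all 4 libraries. Summed levels lay at 2.49 and 2.20 RPKM in ISP KO and 3.45 and 2.99 RPKM in ISP control libraries for erythroid genes, and at 10.6 and 8.53 RPKM in ISP KO and 7.96 and 7.30 RPKM in ISP control libraries for mesenchymal genes, mostly Pdgfrb. Endothelial genes summed to 30.9 and 35.5 RPKM in ISP KO and 31.7 and 31.0 RPKM in ISP control libraries, mostly Pecam1, and epithelial genes to 24.0 and 22.97 RPKM in ISP KO and 21.6 and 21.4 RPKM in ISP control libraries, mostly Epcam. Natural killer cell and innate lymphoid genes summed to 1198 and 1228 RPKM in ISP KO and 1079 and 1328 RPKM in ISP control libraries, mostly Gzma. Of the 10 tested, 0 were called, beside 0.354% of all genes, which says little about so short a list.

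Few genes passed the test, and most that did were higher in ISP KO. A gene is called here when limma's moderated test on log2(RPKM + 1), fitted to all 12 libraries, gives a Benjamini-Hochberg adjusted p under 0.05. RPKM is a read number scaled by gene length and by the size of the library. Of 11303 genes tested, 29 were called higher and 11 lower in ISP KO, 40 in all or 0.354%. The shares by direction were 0.257% higher and 0.0973% lower. The median log2 difference over all genes was -0.01. Without adjustment, 766 genes were higher and 728 lower at p under 0.05. The number of calls rests on the pooled estimate of spread: in a fit of the 4 ISP libraries alone limma called 0 genes, with 1436 at an unadjusted p under 0.05. Calls numbered 17 without ISP control 1, 6 without ISP control 2, 56 without ISP KO 1 and 11 without ISP KO 2. Only Ifitm3 and Lipg were called in all 4 of these fits, and 13 of the 40 were called in none. In every setting run with groups by title, each of the 40 that could be tested kept its direction. For none of the 40 did the genotypes overlap. Leaving out a library or changing the pseudocount, filter or intensity trend therefore could not turn a direction round. Grouped by library name, 9 of the 40 kept theirs.

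**Figure D1:**
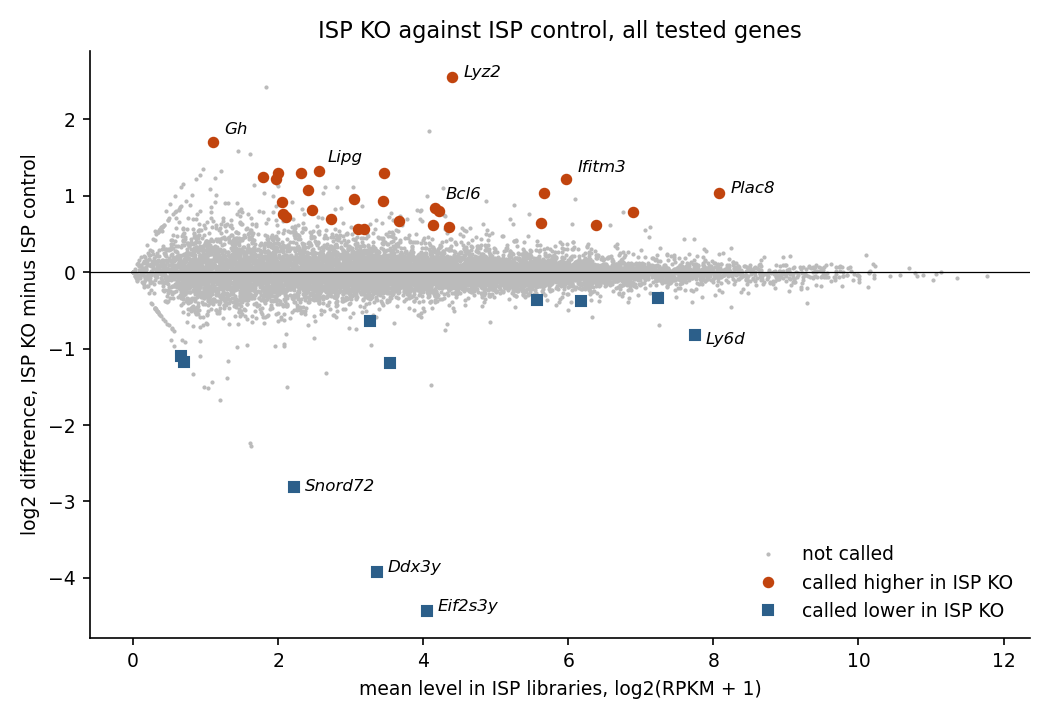
Log2 difference between ISP KO and ISP control libraries (y axis) against the mean level in the 4 ISP libraries (x axis, log2(RPKM + 1)) for the 11303 tested genes. Circles mark the 29 genes called higher and squares the 11 called lower in ISP KO, and most called genes lie above the line at 0.

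Bcl6 itself read higher in the knockout. It was at 18.9 and 25.1 RPKM in ISP KO libraries and 11.9 and 11.6 RPKM in ISP control libraries. Both KO libraries lay above both controls. The log2 difference was 0.84 (SE 0.14, limma adjusted p = 0.0249), and the call held only without ISP KO 1 among the 4 fits that leave out 1 ISP library. Since each gene has a single value, transcripts that lack the flanked exons cannot be told from whole ones, and the level checks nothing about the deletion. BCL6 is known to bind its own promoter, and RefSeq (GRCm38.p6) lists a pair of Bcl6 promoter windows of 300 bases, from 250 before to 50 after the gene start. They are shown because one holds the letters TTCCTNGAA of the core BCL6 motif. Both were searched on both strands for these letters and for TTCNNNGAA, of which the first motif is a special case. In the first window, chr16:23981234-23981533 (minus strand), capitals mark TTCCTNGAA, which begins 168 bases before the start. This window holds 3 matches to TTCNNNGAA, counting this one, and the others are not in capitals. In the second, chr16:23988803-23989102 (minus strand), they mark TTCNNNGAA, which begins 118 bases before the start.
Bcl6 inner window: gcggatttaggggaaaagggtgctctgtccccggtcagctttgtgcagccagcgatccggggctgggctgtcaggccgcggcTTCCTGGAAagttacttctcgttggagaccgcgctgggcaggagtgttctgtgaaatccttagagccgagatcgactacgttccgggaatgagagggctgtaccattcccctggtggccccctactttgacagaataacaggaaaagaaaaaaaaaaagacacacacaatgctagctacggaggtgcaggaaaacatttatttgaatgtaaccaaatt
Bcl6 outer window: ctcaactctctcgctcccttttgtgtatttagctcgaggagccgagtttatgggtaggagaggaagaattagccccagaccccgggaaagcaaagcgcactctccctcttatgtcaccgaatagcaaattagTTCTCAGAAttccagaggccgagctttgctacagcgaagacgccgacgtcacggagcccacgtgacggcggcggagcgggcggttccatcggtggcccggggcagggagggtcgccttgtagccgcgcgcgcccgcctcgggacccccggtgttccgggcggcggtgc

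Across all 32851 promoter windows of this length, 1.59% held TTCCTNGAA and 8.3% held TTCNNNGAA. RefSeq windows were matched for 22 of the 29 genes called higher, 31 windows in all, of which 2 held TTCCTNGAA and 8 held TTCNNNGAA. The 5 windows of 4 genes called lower held neither. Besides Bcl6, the gene with TTCCTNGAA was 9130015A21Rik. A match of letters is a description and not a binding site.

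Interferon-induced antiviral genes made up the clearest group of named genes that rose. Ifitm3, whose protein blocks entry of viruses into cells, was at 92.8 and 81.1 RPKM in ISP KO and 37.7 and 36.0 RPKM in ISP control libraries. The groups did not overlap, and the log2 difference was 1.21 (SE 0.12, limma adjusted p = 0.00641), the smallest adjusted p of the comparison. The oligoadenylate synthetase family, which senses double-stranded RNA, had 3 members called. Oas2 was at 4.30 and 4.98 RPKM in ISP KO against 1.80 and 0.888 RPKM in ISP control libraries (log2 difference 1.29, limma adjusted p = 0.0181). Oas1a was at 6.34 and 5.73 RPKM in ISP KO against 2.63 and 1.27 RPKM in ISP control libraries (log2 difference 1.29, limma adjusted p = 0.0218). Oasl2, an oligoadenylate synthetase-like gene, was at 5.86 and 6.59 RPKM in ISP KO against 2.47 and 2.38 RPKM in ISP control libraries (log2 difference 1.08, limma adjusted p = 0.0181). In each of the 3 genes both KO libraries lay above both controls, which the choice of called genes favours, and 45.2% of all genes did not overlap either. Rtp4, a chaperone of receptor trafficking that interferon induces, rose to 71.3 and 62.8 RPKM in ISP KO, against 36.3 and 28.6 RPKM in ISP control libraries (log2 difference 1.03, limma adjusted p = 0.0218). Ifih1, which encodes the RNA sensor MDA5, had 4.63 and 3.88 RPKM in ISP KO and 2.20 and 2.00 RPKM in ISP control libraries (log2 difference 0.76, limma adjusted p = 0.0432). Trim30a, another interferon-induced gene, had 20.3 and 20.3 RPKM in ISP KO and 13.4 and 12.4 RPKM in ISP control libraries (log2 difference 0.62, limma adjusted p = 0.0257). The calls of Ifih1 and Trim30a were lost without any 1 of the 4 ISP libraries.

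The promoters of interferon-induced genes are known to carry a response element built on repeats of GAAA. Windows of 3 called genes are shown because they hold the letters GAAA, then 2 bases of any kind, then GAAA, a search on both strands added after the calls were seen, with matches in capitals. Matches begin 2 and 19 bases after the start in Ifitm3 (chr7:141010695-141010994, minus strand), 20 and 14 bases before it in Oas1a (chr5:120907476-120907775, minus strand, where they overlap), and 32 bases after it in Ifih1 (chr2:62646206-62646505, minus strand).
Ifitm3: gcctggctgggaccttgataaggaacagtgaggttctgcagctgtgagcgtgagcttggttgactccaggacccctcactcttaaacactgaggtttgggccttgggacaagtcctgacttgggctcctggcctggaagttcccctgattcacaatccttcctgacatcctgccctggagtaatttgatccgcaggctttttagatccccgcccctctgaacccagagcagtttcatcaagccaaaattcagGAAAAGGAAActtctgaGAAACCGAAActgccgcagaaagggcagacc
Oas1a: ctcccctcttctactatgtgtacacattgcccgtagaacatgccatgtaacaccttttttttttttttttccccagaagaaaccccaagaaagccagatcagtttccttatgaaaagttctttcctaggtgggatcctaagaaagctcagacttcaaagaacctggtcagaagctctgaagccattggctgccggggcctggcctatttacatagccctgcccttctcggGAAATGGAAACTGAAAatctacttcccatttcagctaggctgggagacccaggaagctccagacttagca
Ifih1: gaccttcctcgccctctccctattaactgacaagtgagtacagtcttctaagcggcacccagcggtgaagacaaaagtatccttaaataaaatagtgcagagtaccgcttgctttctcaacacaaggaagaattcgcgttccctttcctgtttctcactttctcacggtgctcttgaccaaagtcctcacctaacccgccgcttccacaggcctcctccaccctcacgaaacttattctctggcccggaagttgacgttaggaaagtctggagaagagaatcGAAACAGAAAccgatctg

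Of all RefSeq promoter windows, 3.44% held this paired GAAA motif. It stood in 7 of the 31 windows of genes called higher, those of Ifitm3, Oas1a, Ifih1, Coro2a and Gm12250 and both of Trim30a, and in none of the 5 windows of genes called lower. The window of Oasl2 held no match.

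A list of 24 interferon response genes was chosen for this tissue with earlier results of these data known, and all were tested. Its counts are therefore a description. Oas2, Oas1a, Oasl2 and Rtp4 were called higher, 4 of 24 beside 0.257% of all genes, and 0 lower. The list's median log2 difference was 0.49, beside -0.01 over all genes, and 23 of 24 members had a positive value, the exception being Ifit2 (-0.29). The 2 genotypes did not overlap in 22 of 24 members, beside 45.2% of all genes. Members that missed the threshold included Ifit1, an RNA-binding antiviral protein gene, at 7.97 and 8.69 RPKM in ISP KO and 3.82 and 4.62 RPKM in ISP control libraries (limma adjusted p = 0.0632). Isg15, which encodes a ubiquitin-like modifier, was at 91.2 and 85.7 RPKM in ISP KO and 56.3 and 35.8 RPKM in ISP control libraries (limma adjusted p = 0.0735). Irf7, a transcription factor of the response, was at 26.0 and 21.3 RPKM in ISP KO and 15.5 and 12.2 RPKM in ISP control libraries (limma adjusted p = 0.0879). The list's count was 4 without ISP control 1, 2 without ISP KO 1 and 0 without either of the other libraries, with medians between 0.39 and 0.64. In DP cells 16 of the 24 were called higher in KO (median 0.72, with 14.1% of all genes called higher there). In CD25-positive cells 0 were called, beside 0.0265% of all genes, but 23 of the 24 had positive values with a median of 0.40, and 17 were higher at an unadjusted p under 0.05. None of the 24 had a called difference between the KO effect in ISP and that in DP cells. The summed level of myeloid markers, given with Lyz2, was also higher in both ISP KO libraries. Of 17 markers 1 was called higher, beside 0.257% of all genes, and 13 were positive, beside 47.5% of all genes. The part of myeloid cells in the interferon values was not tested.

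Genes of MHC class I and antigen processing, many of which interferon also induces, were not called. The count was 0 of 12 tested, of 13 listed, beside 0.354% of all genes. All 12 had positive values, with a median of 0.24, and the genotypes did not overlap in 10, beside 45.2% of all genes. H2-K1, a class I heavy chain, was at 231 and 212 RPKM in ISP KO and 159.8 and 168 RPKM in ISP control libraries (limma adjusted p = 0.097). B2m, its light chain, was at 1229 and 1129 RPKM in ISP KO and 1012 and 1009 RPKM in ISP control libraries (limma adjusted p = 0.301). Genes of this family are close copies of each other, so reads may be shared between them.

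**Figure D2:**
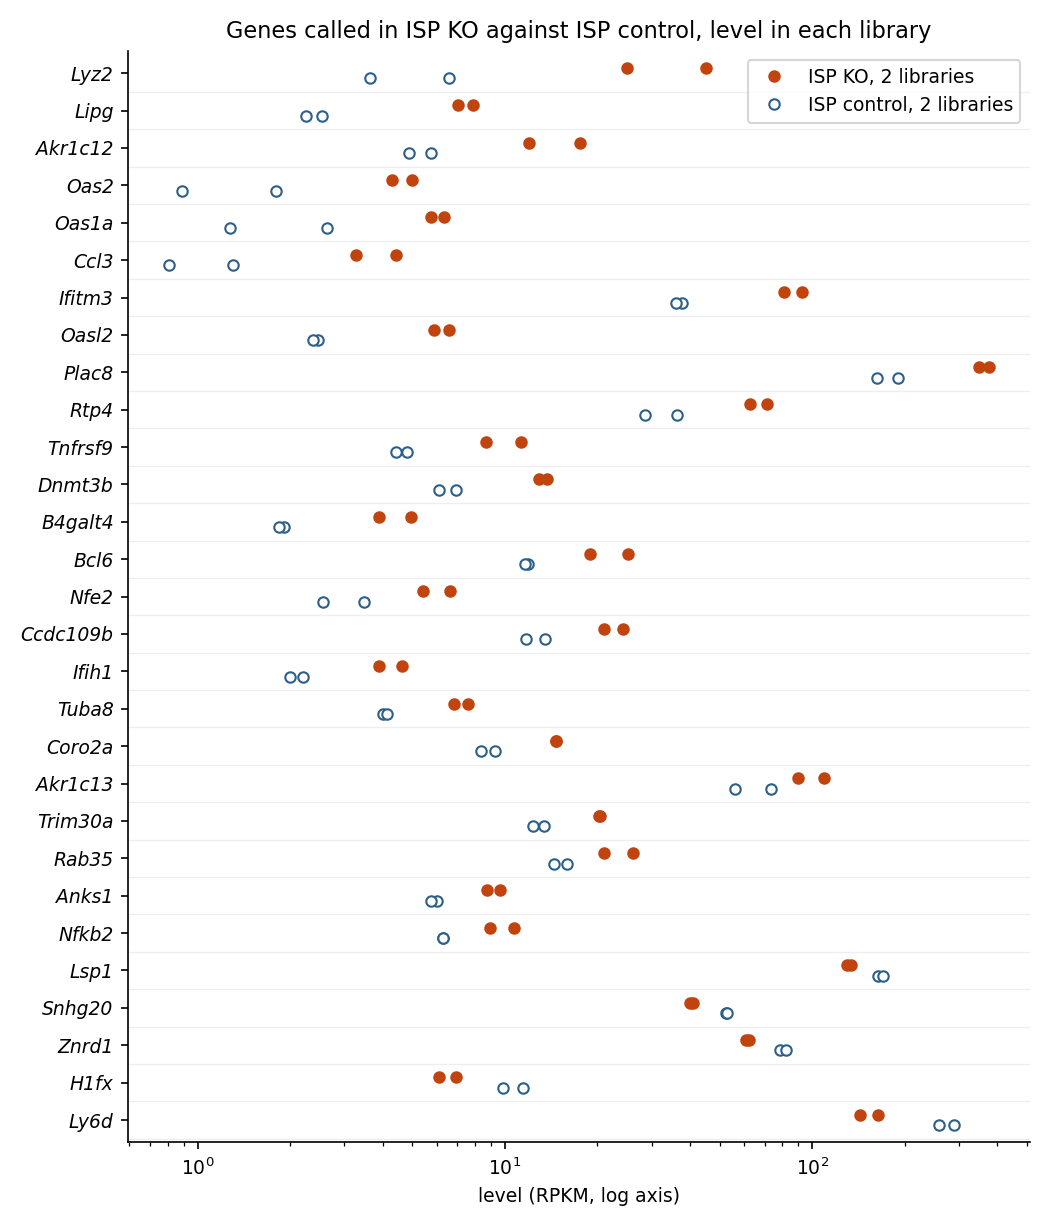
Level in each library (x axis, RPKM, log axis) of 29 called genes, leaving out small RNA, Y chromosome and predicted genes and Gh, with 1 more gene left out. Filled circles are the 2 ISP KO and open circles the 2 ISP control libraries, ordered by log2 difference. The groups do not overlap for any gene shown, beside 45.2% of all genes, and the choice of called genes favours this.

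A few genes of NF-kappaB signalling and of effector function also rose. Tnfrsf9, the costimulatory receptor 4-1BB, was at 8.65 and 11.3 RPKM in ISP KO and 4.41 and 4.79 RPKM in ISP control libraries. The log2 difference was 0.96 (SE 0.15, limma adjusted p = 0.0218). Nfkb2, the precursor of the p52 subunit, was at 8.94 and 10.7 RPKM in ISP KO and 6.29 and 6.30 RPKM in ISP control libraries (log2 difference 0.56, limma adjusted p = 0.0468). These were the 2 called of 15 NF-kappaB genes tested, beside 0.257% of all genes, and the list's median was 0.22. Nfkb1 was at 23.7 and 30.8 RPKM in ISP KO and 17.1 and 19.2 RPKM in ISP control libraries (limma adjusted p = 0.0721). The list's count was 3 without ISP KO 1 and 0 without any 1 of the other 3 ISP libraries. Ccl3, an inflammatory chemokine and the only gene called among 16 tested cytotoxic and effector genes (beside 0.257% of all genes), was at 3.28 and 4.41 RPKM in ISP KO and 0.808 and 1.30 RPKM in ISP control libraries (log2 difference 1.24, limma adjusted p = 0.0433). That call was lost without any 1 of the 4 ISP libraries. The neighbouring gene Ccl4 was at 6.12 and 2.98 RPKM in ISP KO and 1.72 and 1.17 RPKM in ISP control libraries. It was not called (limma adjusted p = 0.121). Gzmb, granzyme B, was at 55.0 and 41.5 RPKM in ISP KO and 23.9 and 27.4 RPKM in ISP control libraries (limma adjusted p = 0.41).

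ISP KO 2 stood apart from the other 3 libraries in several genes that antigen receptor signals induce. Nr4a1, an orphan nuclear receptor, was at 11.0 and 28.2 RPKM in ISP KO and 10.5 and 8.90 RPKM in ISP control libraries. Irf4, a dose-sensitive factor of the same signal, was at 0.456 and 9.76 RPKM in ISP KO and 0.53 and 1.06 RPKM in ISP control libraries. Ccr7, a chemokine receptor, was at 8.60 and 22.5 RPKM in ISP KO and 7.00 and 9.25 RPKM in ISP control libraries. In these genes the difference rests on ISP KO 2 alone. None was called, and 0 of 23 tested receptor-induced early genes were, beside 0.354% of all genes, with a median of 0.17. Tnfrsf9 and Nfkb2 were also highest in ISP KO 2, and neither was called without it (limma adjusted p = 0.208 for Tnfrsf9 and 0.328 for Nfkb2).

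Several other genes rose. Plac8, a small cysteine-rich protein gene, was among the most abundant genes called, at 350.03 and 375 RPKM in ISP KO and 162 and 191 RPKM in ISP control libraries (log2 difference 1.04, limma adjusted p = 0.0181). Lipg, endothelial lipase, was at 7.04 and 7.86 RPKM in ISP KO and 2.25 and 2.54 RPKM in ISP control libraries (log2 difference 1.32, SE 0.15, limma adjusted p = 0.00752). Akr1c12, an aldo-keto reductase gene, was at 17.5 and 12.0 RPKM in ISP KO and 5.76 and 4.88 RPKM in ISP control libraries (log2 difference 1.30, limma adjusted p = 0.0178). Its relative Akr1c13, from the same cluster on chromosome 13, was at 109 and 89.8 RPKM in ISP KO and 55.9 and 73.4 RPKM in ISP control libraries (log2 difference 0.62, limma adjusted p = 0.0442). The aldo-keto reductases are close copies of each other, so reads may be split between them. Dnmt3b, a de novo DNA methyltransferase, was at 12.9 and 13.7 RPKM in ISP KO and 6.10 and 6.94 RPKM in ISP control libraries (log2 difference 0.93, limma adjusted p = 0.0266). In none of these 5 genes did the genotypes overlap, which the choice of called genes favours, and 45.2% of all genes did not overlap either. The Plac8 call was lost without ISP control 1, ISP control 2 or ISP KO 2 and held without ISP KO 1, and the Dnmt3b call was lost without any 1 of the 4. The remaining called genes included B4galt4, Coro2a, Tuba8, Nfe2, Ccdc109b, Rab35 and Anks1, with log2 differences from 0.56 (Anks1) to 0.91 (B4galt4). Fitted differences of low genes are understated on this scale.

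Lyz2, lysozyme of macrophages and granulocytes, was called higher. It was at 25.0 and 45.2 RPKM in ISP KO and 6.58 and 3.65 RPKM in ISP control libraries (log2 difference 2.55, SE 0.37, limma adjusted p = 0.0189). Other myeloid markers stood beside it. Of 21 listed, 17 were tested and 1 (Lyz2) was called higher, beside 0.257% of all genes. Positive values numbered 13 of the 17, beside 47.5% of all genes, with a median of 0.26. The Lyz2 call was lost without ISP control 2 or ISP KO 2. S100a8, a calcium-binding protein of neutrophils, was at 3.50 and 6.57 RPKM in ISP KO and 0.181 and 0 RPKM in ISP control libraries. Csf1r, the macrophage growth factor receptor, was at 1.2 and 1.45 RPKM in ISP KO and 0.256 and 0.487 RPKM in ISP control libraries. Without Cst3, the gene that made up most of the list, the markers summed to 92.1 and 95.8 RPKM in ISP KO and 47.9 and 46.6 RPKM in ISP control libraries. Cd68 and the complement gene C1qa overlapped between the genotypes, and C1qc was at 1.66 and 1.29 RPKM in ISP KO and 2.29 and 2.03 RPKM in ISP control libraries. In DP cells the same sum was 99.4 and 113.1 RPKM in DP KO and 38.9 and 30.8 RPKM in DP control libraries. Mast cell markers without Srgn summed to 30.2 and 36.1 RPKM in ISP KO and 13.9 and 18.0 RPKM in ISP control libraries, mostly Cpa3 (22.1 and 28.6 RPKM in ISP KO against 10.0 and 12.6 RPKM in ISP control libraries and not called). Tpsab1 and Mrgprb1, 2 of the 13 mast cell markers, were at 0 in all 4 libraries. Whether a few myeloid or mast cells in the sort contribute to the higher values of Lyz2, Ccl3, Plac8 and the interferon genes was not tested, and in bulk samples more cells of a type cannot be told apart from more RNA per cell.

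**Figure D3:**
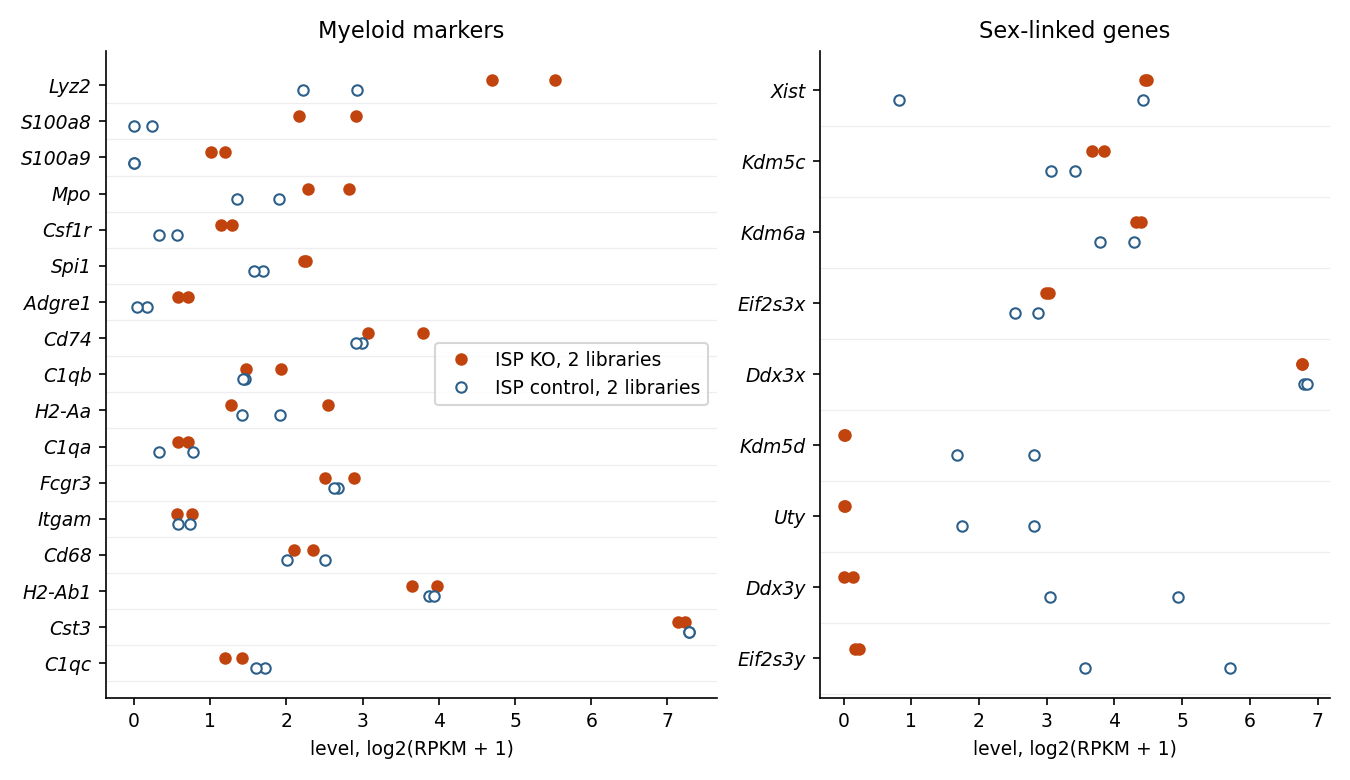
Level in each ISP library (x axes, log2(RPKM + 1)) of the 17 tested myeloid markers and the 9 tested sex-linked genes. Filled circles are ISP KO and open circles ISP control libraries. Lyz2 and S100a8 are higher in both KO libraries, and the 4 Y chromosome genes are near 0 in KO.

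Among the genes that fell, those with many reads were few. Ly6d, a surface marker of the lymphoid lineage, was at 164 and 143 RPKM in ISP KO and 288 and 258 RPKM in ISP control libraries. The groups did not overlap, and the log2 difference was -0.82 (SE 0.13, limma adjusted p = 0.0218). Lsp1, an actin-binding protein of leukocytes, was at 129.7 and 133 RPKM in ISP KO and 164 and 170.3 RPKM in ISP control libraries (log2 difference -0.34, limma adjusted p = 0.0218). H1fx, a linker histone variant, was at 6.10 and 6.91 RPKM in ISP KO and 11.5 and 9.85 RPKM in ISP control libraries (log2 difference -0.64, limma adjusted p = 0.0386). Znrd1, a subunit of RNA polymerase I, had a log2 difference of -0.38, and the snoRNA host gene Snhg20 one of -0.37 (limma adjusted p = 0.0218 for each). Eif2s3y and Ddx3y, both on the Y chromosome, were also called lower.

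The other 4 of the 11 genes called lower were small RNA genes with very few reads. Mir7069 and Mir7089 had 0 reads in each ISP KO library and 1 read in each ISP control library. Snord72 had 0 and 0 reads in ISP KO and 10 and 2 reads in ISP control libraries. Mir3064 had 4 and 7 reads in ISP KO and 14 and 12 reads in ISP control libraries. RPKM turns single reads into sizeable values for genes this short (60 to 67 bases), and such counts do not carry a difference. With small RNA genes left out before the fit, 52 genes were called higher and 26 lower, a choice made after seeing these counts.

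Genes that mark the DP stage were mostly below control in ISP KO, with 1 call. Of 24 listed and 23 tested, Ly6d was called lower, beside 0.0973% of all genes. Negative values numbered 21, and the median log2 difference was -0.17. Ly6d itself was not highest in DP cells here. Control libraries held 288 and 258 RPKM in ISP, 213 and 193 RPKM in DP and 193 and 225 RPKM in CD25-positive cells. The Ly6d call held only without ISP KO 1 among the 4 fits that leave out 1 ISP library. Dntt, the enzyme that adds bases at receptor gene joints, was at 133 and 98.9 RPKM in ISP KO and 179.99 and 194 RPKM in ISP control libraries (log2 difference -0.70, limma adjusted p = 0.0851). Cd8b1, the beta chain of CD8, was at 554 and 520.1 RPKM in ISP KO and 703 and 715 RPKM in ISP control libraries (limma adjusted p = 0.097). Ccr9, a chemokine receptor of cortical thymocytes, was at 63.0 and 61.8 RPKM in ISP KO and 82.3 and 108 RPKM in ISP control libraries (limma adjusted p = 0.103). In the last 3 genes both KO libraries lay under both controls, which their choice by smallest p favours. The genotypes did not overlap in 17 of the 23 tested genes, beside 45.2% of all genes. Among 23 tested genes 0 were called without ISP control 1, ISP control 2 or ISP KO 2, and 2 without ISP KO 1. In DP cells 14 of the 23 were called lower (median -0.31, with 7.78% of all genes called lower there).

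Genes of the preceding CD25-positive stage gave 0 calls of 20 tested, beside 0.354% of all genes. They had 15 positive values, beside 47.5% of all genes, and a median of 0.17. The genotypes did not overlap in 9 of the 20, beside 45.2% of all genes. Il2ra, which encodes CD25, was at 43.3 and 44.7 RPKM in ISP KO and 29.9 and 24.2 RPKM in ISP control libraries. Its groups did not overlap, and the log2 difference was 0.69 (SE 0.16, limma adjusted p = 0.091). In DP cells Il2ra ran the other way, at 21.1 and 14.5 RPKM in DP KO and 32.95 and 24.3 RPKM in DP control libraries (log2 difference -0.66, limma adjusted p = 0.0127). The KO effect in ISP minus that in DP was 1.35 (SE 0.22, limma adjusted p = 0.0122). Scin, an actin-severing protein gene, was at 13.7 and 14.9 RPKM in ISP KO and 4.17 and 6.64 RPKM in ISP control libraries (limma adjusted p = 0.0954). Fbp1, an enzyme of gluconeogenesis, was at 5.77 and 4.96 RPKM in ISP KO and 3.12 and 2.15 RPKM in ISP control libraries (limma adjusted p = 0.0775).

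**Figure D4:**
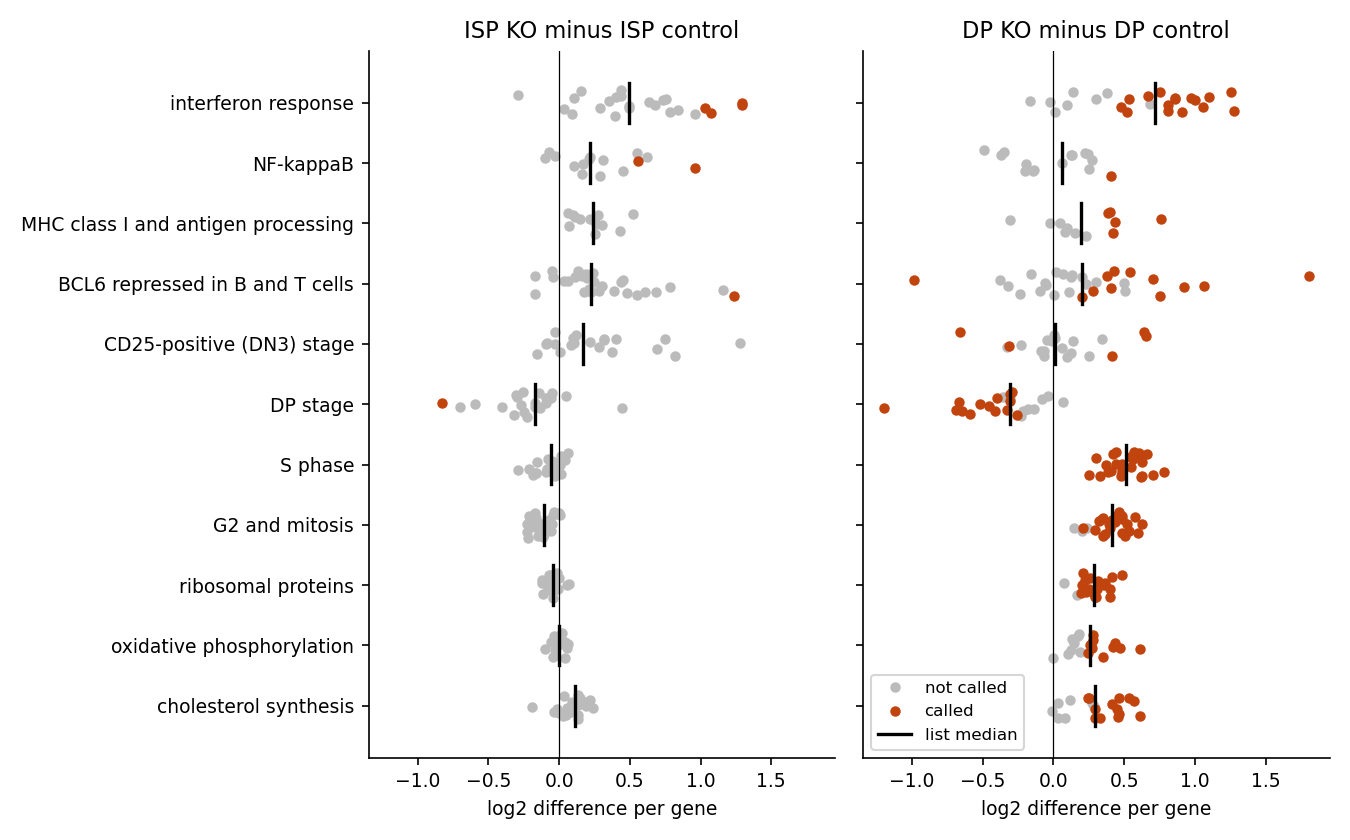
Log2 difference of each tested member of 11 gene lists in ISP (left) and DP cells (right), with KO minus control on the x axis. Coloured points are called, and black bars are list medians. S phase genes lie near 0 in ISP (median -0.05) and above 0 in DP cells (median 0.51).

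Genes that BCL6 is known to repress in B and T cells were examined as a list of 34, of which 30 were tested. Ccl3 was called higher, 1 of 30 beside 0.257% of all genes, and 0 lower. Values were positive for 26 of 30, beside 47.5% of all genes, with a median of 0.23. The genotypes did not overlap in 14 of the 30, beside 45.2% of all genes. Il7r, the interleukin-7 receptor chain, was at 12.1 and 15.6 RPKM in ISP KO and 7.27 and 9.16 RPKM in ISP control libraries (limma adjusted p = 0.0954). Bcl2, a survival gene, was at 11.3 and 10.9 RPKM in ISP KO and 7.33 and 8.50 RPKM in ISP control libraries (limma adjusted p = 0.0954). Ccnd2, cyclin D2, was at 36.0 and 40.8 RPKM in ISP KO and 24.0 and 30.9 RPKM in ISP control libraries (limma adjusted p = 0.135). The Ccl3 call was lost without any 1 of the 4 ISP libraries. Prdm1, a repressor that BCL6 holds off in B cells, was too low to test, at 0.264 and 0.0873 RPKM in ISP KO and 0.0681 and 0.165 RPKM in ISP control libraries. Ccnd2 was called in DP cells, at 14.99 and 17.1 RPKM in DP KO and 4.39 and 3.40 RPKM in DP control libraries. The KO effect on Ccnd2 in ISP minus DP was -1.33 (limma adjusted p = 0.00812). Of 17 tested corepressors and partners of BCL6, 0 were called, beside 0.354% of all genes.

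Genes of proliferation differed between the genotypes in DP cells and were not called in ISP cells, and the difference of the KO effects was itself called. Of 26 S phase genes, 0 were called in ISP cells, beside 0.354% of all genes, and 26 were called higher in DP KO, beside 14.1%. The KO effect was lower in ISP than in DP cells for all 26, and the difference was called for 22 of them. Over all genes that difference was called for 474 (4.19%), of which 415 (3.67%) were lower and 59 (0.522%) higher in ISP. Mcm5, a subunit of the replicative helicase, was at 204 and 199 RPKM in ISP KO and 209 and 217 RPKM in ISP control libraries. In DP cells Mcm5 was at 103 and 108 RPKM in KO and 68.5 and 73.0 RPKM in control libraries. The KO effect on Mcm5 in ISP minus DP was -0.65 (limma adjusted p = 0.00812). Of 25 genes of G2 and mitosis, 0 were called in ISP cells, where 24 had negative values with a median of -0.11, and 22 were called higher in DP KO, again beside 14.1% of all genes. For 19 of the 25 the difference of effects was called, all lower in ISP. Ccna2, cyclin A2, was at 183 and 174 RPKM in ISP KO and 210.2 and 209 RPKM in ISP control libraries, and at 200.3 and 216 RPKM in DP KO and 154 and 162 RPKM in DP control libraries (difference of effects -0.63, limma adjusted p = 0.00959). Without 1 of the 8 libraries in turn the counts of called differences ran from 11 (without ISP KO 2) to 24 (without DP KO 1) for S phase and from 4 (without ISP KO 2 or DP control 1) to 21 (without DP KO 1) for G2 and mitosis.

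With 0.354% of all genes called in ISP cells, 0 calls in a short list say little about that list. Biosynthesis and metabolism lists gave 0 calls in ISP cells. This held for 20 ribosomal protein genes (median -0.04), 18 of ribosome biogenesis (0.07), 19 of oxidative phosphorylation (0.00), 20 of glycolysis (-0.06), 20 of cholesterol synthesis (0.11) and 15 of amino acid response and serine synthesis (0.01), each median being a log2 difference. In DP cells 18 of the 20 ribosomal protein genes, 11 of the 19 oxidative phosphorylation genes and 13 of the 20 cholesterol genes were called higher in KO. These counts stand beside 14.1% of all genes called higher in DP KO. The difference of effects was called for 5 ribosomal protein, 4 oxidative phosphorylation and 2 cholesterol genes. All were lower in ISP, beside 3.67% of all genes. Without 1 of the 8 libraries in turn these counts ran from 0 to 8, 0 to 10 and 0 to 4, with the highest of each without DP KO 1 and 0 in most of the other fits. Rpl3, a protein of the large subunit, was at 444 and 474 RPKM in ISP KO and 465 and 507 RPKM in ISP control libraries, and at 199 and 208 RPKM in DP KO and 154 and 153 RPKM in DP control libraries. Its difference of effects was -0.48 (limma adjusted p = 0.0158). Lists of T cell receptor signalling (17 tested), T lineage transcription factors (20), Notch targets (10) and E proteins and Id inhibitors (6) also gave 0 calls in ISP cells. So did the BCL2 family (14), p53 targets (20) and the Zbtb family (18), again beside 0.354% of all genes. Among cell cycle inhibitors Cdkn2c, p18, was at 17.8 and 15.9 RPKM in ISP KO and 24.8 and 22.5 RPKM in ISP control libraries (limma adjusted p = 0.075).

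The genes called in ISP cells were then followed in the other populations. Of the 29 called higher in ISP KO, 23 were also higher in DP KO, 18 of them called beside 14.1% of all genes, and 25 were higher in CD25-positive KO cells, 0 of them called. Over all genes, 9 (0.0796%) were called in CD25-positive cells, 0.0265% higher and 0.0531% lower. Medians of the log2 differences of the 29 were 0.91 in ISP, 0.55 in DP and 0.27 in CD25-positive cells. Sex makeup cannot be told apart from genotype in DP cells either, so the agreement of ISP and DP cells shares that limit. For 10 of the 29 the KO effect in ISP differed from that in DP cells, beside 4.19% of all genes. The 29 were picked by their ISP difference, which is part of this contrast, so the choice itself raises the count. Tnfrsf9 was at 0.311 and 0.189 RPKM in DP KO and 0.642 and 0.59 RPKM in DP control libraries (difference of effects 1.33, limma adjusted p = 0.0116). Akr1c12 was at 3.36 and 3.25 RPKM in DP KO and 2.93 and 3.06 RPKM in DP control libraries (difference of effects 1.19, limma adjusted p = 0.0173). Dnmt3b had the larger effect in DP cells, at 4.94 and 8.19 RPKM in DP KO and 1.08 and 1.02 RPKM in DP control libraries (difference of effects -0.92, limma adjusted p = 0.0393). Ifitm3 was at 23.4 and 30.2 RPKM in DP KO and 12.9 and 10.5 RPKM in DP control libraries (difference of effects 0.09, limma adjusted p = 0.823). Of the 11 genes called lower, 8 were lower in DP KO, 3 of them called, beside 7.78% of all genes. These 3 were Snhg20 and the Y chromosome genes Eif2s3y and Ddx3y. A called difference of effects was found for 5 of the 11, beside 4.19% of all genes and with the same limit. They were Mir7069, Mir7089 and Snord72, which had very few reads, and Znrd1 and Ly6d. Ly6d was at 169 and 231 RPKM in DP KO and 213 and 193 RPKM in DP control libraries, where the groups overlapped (difference of effects -0.79, limma adjusted p = 0.0361). Against CD25-positive cells, limma called 0 genes for a difference of KO effects, with 1105 at an unadjusted p under 0.05 and 14 called by voom on recovered reads. Smim5, a small membrane protein gene, was at 26.7 and 24.9 RPKM in CD25-positive KO and 3.93 and 4.39 RPKM in CD25-positive control libraries. In ISP cells it was at 4.05 and 15.9 RPKM in KO and 14.9 and 6.75 RPKM in control libraries, which overlap.

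**Figure D5:**
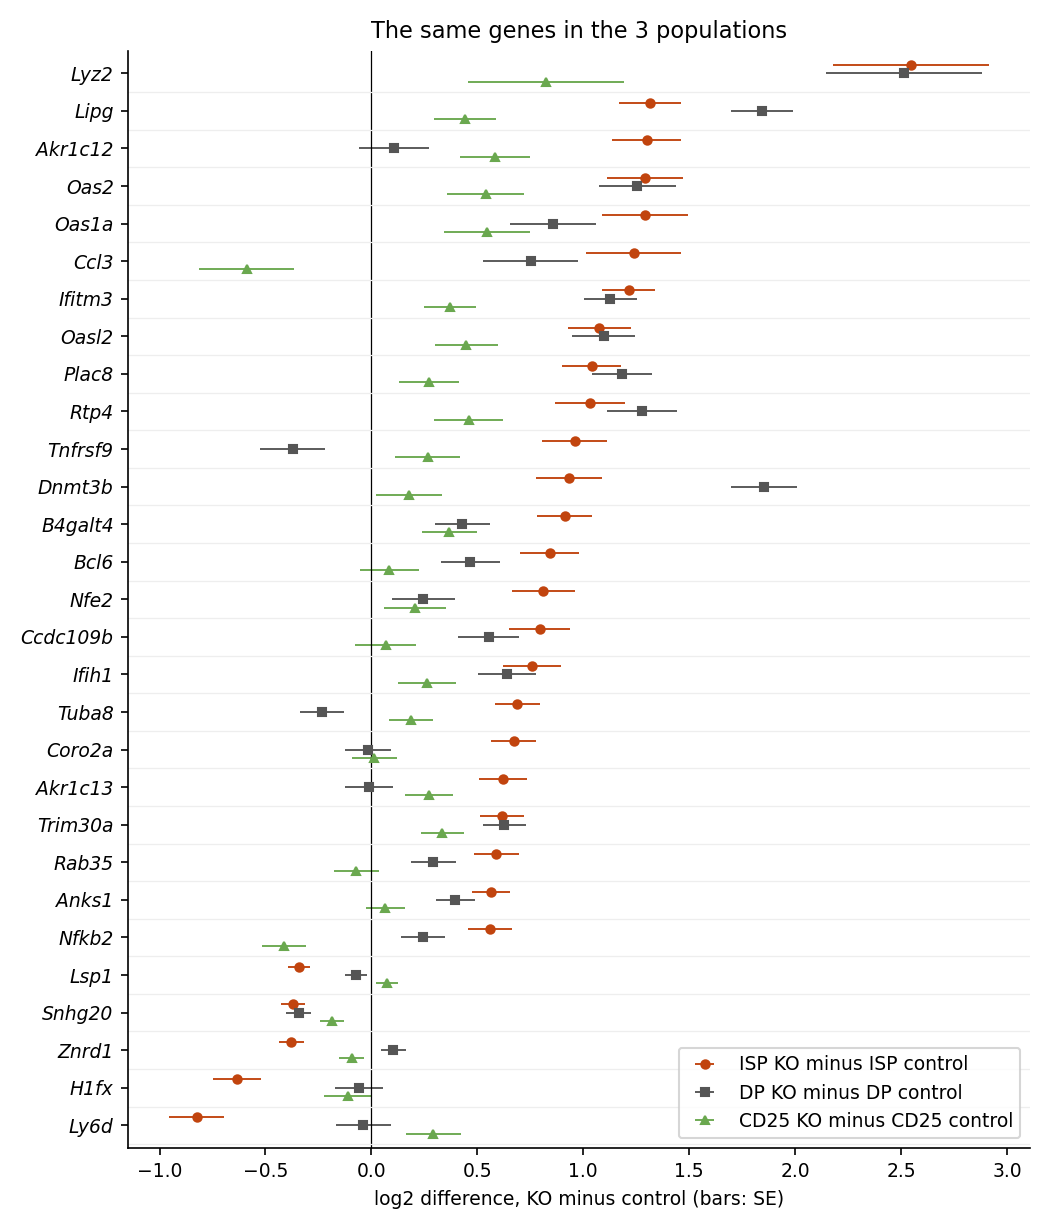
KO minus control log2 difference with its standard error (x axis) in ISP, DP and CD25-positive cells for the 29 called genes of the plot of levels. Interferon genes such as Ifitm3 and Rtp4 lie to the right in ISP and DP cells alike, while Tnfrsf9, Tuba8 and Akr1c12 do so in ISP cells and not in DP cells.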

How the data were processed

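RNA from sorted thymocytes was sequenced in 12 libraries, 4 of them ISP. The authors deposited 1 table of RPKM values for 24421 genes. BWA and the GRCm38 build are named in the submitters' processing notes. Which counter, annotation and filters were used is not given in the sources used here. Reads were recovered from the steps in the deposited RPKM values, and 100% of 169595 values above 0 came out whole within 0.02 reads. 27 names in the form of dates were not named. The 6 groups by title were fitted together in limma 3.58.1 (R 4.3.3, trended prior variance, 6 residual degrees of freedom) on log2(RPKM + 1), keeping the 11303 genes that reached 1 RPKM in 2 or more of the 12 libraries, with Benjamini-Hochberg adjustment over all genes. The floor of 3 reads covers counting error only. Alternatives covered pseudocounts of 0.1 and 0.5, filters, normalization, voom on recovered reads, a replicate block, groups by library name and leaving out each library.

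Genes were named by a rule: Bcl6, Il2ra, Cd4, Cd8a, Cd8b1, Gh, Smim5, up to 15 largest rises and 15 largest falls with non-overlapping libraries and at least 5 RPKM on the higher side, up to 5 per list by smallest p, and up to 8 per difference of KO effects. Other names were chosen after their values were seen. 1 called gene is not reported here. Members and lists were chosen with earlier results of these data known. Promoter windows are from RefSeq (GRCm38.p6). The mitochondrially encoded list had no gene in the table. Figures used Python 3.11.15, pandas 2.3.3, numpy 2.4.6 and matplotlib 3.10.9.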

Additional observations from a re-analysis of the deposited data

Results flagged for a closer look

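For 15 genes, all named by the rule, the KO effect in ISP cells differed from that in DP cells by limma's test of the difference, with 2 libraries in each group. Values are the log2 KO effect in ISP minus that in DP.

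The effect was more positive in ISP for Il2ra (1.35), Kbtbd11 (1.36), Tnfrsf9 (1.33), Akr1c12 (1.19), Tuba8 (0.92) and Coro2a (0.69). Il2ra was 0.69 in ISP and -0.66 in DP, and Kbtbd11 was 0.31 in ISP and -1.05 in DP.

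The effect was more negative in ISP for Pdlim4 (-2.24), Acoxl (-2.04), Fam212a (-1.35), Dnmt3b (-0.92), Ly6d (-0.79) and Znrd1 (-0.48). Pdlim4, a PDZ and LIM domain gene, was at 181 and 154 RPKM in ISP KO and 116 and 105 RPKM in ISP control libraries, and at 130.4 and 186 RPKM in DP KO and 20.9 and 20.9 RPKM in DP control libraries. Acoxl, an acyl-CoA oxidase-like gene, was 0.76 in ISP and 2.80 in DP.

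Snord72 (-2.76), Snord47 (-1.74) and Gh (-1.45) rest on few reads or on a group at 0, where a fitted value depends on the pseudocount. In ISP cells Gh averaged 2.31 RPKM in KO libraries, at least 17.9-fold higher than control, counted against 3 reads summed over both control libraries.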

How the results depend on the processing

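The ISP comparison called 29 genes higher and 11 lower, 474 genes for the difference of KO effects from DP and 0 for that from CD25-positive cells. In that order these counts were 2, 6, 185 and 2 with no filter on low values, and 48 and 19 at a filter of 5 RPKM. They were 0, 0 and 302 with only the populations compared in the fit, 2, 1 and 302 with the 8 anti-CD3 libraries, and 4, 2, 25 and 1 with no intensity trend. voom on recovered reads gave 130, 44 and 14 for all but the DP difference. Quantile normalization gave 304 for the DP difference, and a pseudocount of 0.1 gave 1 for the CD25 difference. Without 1 library the counts ran from 5 to 46 higher, 1 to 10 lower, 64 to 1017 and 0 to 3. Left out after seeing the data, small RNA genes gave 52 and 26, and small RNA with sex-linked genes 52 and 22. The labels do not pair the replicates, and same-numbered ISP KO and ISP control libraries did not deviate together (correlation -0.03). The correlation was 0.12 for ISP control with DP control, 0.06 for ISP KO with DP KO and 0.01 for DP KO with DP control. With the replicate number as a block within genotype, added after seeing the data, the 8 anti-CD3 libraries gave 333 for the DP difference, against 302 with no such block. With the replicate block 30 genes were higher and 12 lower, the DP difference numbered 538 and the CD25 difference 1, and Il2ra passed (adjusted p = 0.0462), as under voom (0.0151).

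Grouped by library name, the counts were 2681, 2821, 0 and 3372, and log2 differences turned round for Il2ra (-0.77), Cd4 (3.63), Cd8a (1.71), Cd8b1 (1.89), Smim5 (0.79), Lipg (-1.37), Akr1c12 (-1.07), Oas1a (-0.74), Ifitm3 (-1.54), Oasl2 (-1.27), Plac8 (-4.22), Rtp4 (-0.52), Tnfrsf9 (-2.62), Dnmt3b (-1.32), Nfe2 (-1.88), Ccdc109b (-1.34), Coro2a (-1.98), Snord72 (1.596), Mir3064 (0.97), Ly6d (0.13), H1fx (0.25), Snhg20 (0.20) and Lsp1 (0.95). By title, without 1 library Smim5 ran from -1.13 to 0.61 (0.26 without ISP control 1) and Cd4 from -0.36 to 0.17, neither being called. Where the alternative's own construction does not show it, the cause was not tested. Depth limits the genes with few reads, such as Gh and the small RNA genes.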
